A study of Mus musculus with 3 samples.

Results

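The interleukin-6 and oncostatin family was followed as 10 genes chosen by name, namely the ligands *Il6*, *Osm*, *Lif* and *Il11*, the receptor chains *Il6ra*, *Il6st*, *Osmr*, *Lifr* and *Il11ra1*, and the feedback inhibitor *Socs3*. All 10 of the 10 listed symbols were found by Ensembl ID among the 32285 genes of the count tables. The samples were healing skin wounds of adult C57BL/6J mice, an inbred laboratory strain for which the methods give age-matched males, taken on Days 3, 7 and 14 after injury. The labels' design text speaks of incisional injury, whereas the study's methods describe full-thickness punch wounds. Each day was 1 droplet-based single-cell RNA library, made without sorting from the pooled tissue of several wounds. With 1 library per day there is no replicate check and no test, and every ratio given here compares 2 libraries and not the days themselves.

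Cytokines of this family share the signalling chain gp130, the product of *Il6st*. Interleukin-6 binds the alpha chain *Il6ra* and interleukin-11 binds *Il11ra1*, and each complex then joins gp130, while oncostatin M in the mouse signals mainly through *Osmr* paired with gp130 and leukaemia inhibitory factor through *Lifr* paired with gp130. The paired chains activate JAK kinases and the transcription factor STAT3, which induces *Socs3*, and the *Socs3* protein binds gp130 and damps the signal. In skin, the family is known for the inflammatory phase of repair, and interleukin-6 for its part in timely wound closure in mice.

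After filters and removal of called doublets, 4360, 19590 and 13510 cells were used on Days 3, 7 and 14, with 3521.5, 3228.5 and 5891.5 unique molecular identifiers (UMIs, each standing for 1 captured mRNA molecule) in the median cell. Between 14 and 82 cell barcodes were shared by a pair of libraries. Cells were grouped into 32 clusters without the 10 genes, and clusters were called "X-like" from standard markers. Levels are CPM, the UMIs of a gene in 1000000 UMIs of the cells summed. Intervals are at 95%, from the exact Poisson distribution for CPM and the exact conditional binomial one for ratios, and hold counting error alone. Fibroblast-like cells numbered 416, 5914 and 5993 on Days 3, 7 and 14, and macrophage-like cells 2720, 9526 and 3226. Fibroblast-like cells of Day 3 were deep, with a median of 44189 UMIs against 10308 and 9951 on Days 7 and 14.

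Promoter windows are shown for the 5 members in which a match to either of a pair of motifs was found, and they were chosen for that match. They come from the RefSeq table for GRCm38.p6 and run from 250 bases before to 50 bases after an annotated start, 5′ to 3′ on the gene's strand. The table had 12 windows for 9 members, and *Osm* had no entry. Capitals mark matches to TTCNNNGAA, a core that STAT factors bind, or to TGANTCA, a core of AP-1 sites, each of which equals its own reverse complement. No match of one overlapped the other in these windows. Of all 32851 windows, 8.3% held the first and 7.81% the second. Among the members' windows the first was found in that of *Socs3*, beginning at base -154 from the start (chr11:117969317-117969616, minus strand). The second began at base -249 in *Il6* (chr5:30012864-30013163, plus strand), at -228 in *Lif* (chr11:4257318-4257617, plus strand), at -98 in 1 of 2 windows of *Il11* (chr7:4778092-4778391, minus strand) and at 3 in *Osmr* (chr15:6874264-6874563, minus strand). The windows of *Il6ra*, *Il6st*, *Lifr* and *Il11ra1* had no match to either. A match describes letters and was not tested as a binding site.
Il6: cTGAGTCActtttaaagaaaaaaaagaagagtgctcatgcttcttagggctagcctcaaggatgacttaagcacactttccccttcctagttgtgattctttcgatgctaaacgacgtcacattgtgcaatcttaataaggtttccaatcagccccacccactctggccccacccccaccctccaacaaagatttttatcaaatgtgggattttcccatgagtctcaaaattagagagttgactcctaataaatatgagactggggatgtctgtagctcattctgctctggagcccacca
Lif: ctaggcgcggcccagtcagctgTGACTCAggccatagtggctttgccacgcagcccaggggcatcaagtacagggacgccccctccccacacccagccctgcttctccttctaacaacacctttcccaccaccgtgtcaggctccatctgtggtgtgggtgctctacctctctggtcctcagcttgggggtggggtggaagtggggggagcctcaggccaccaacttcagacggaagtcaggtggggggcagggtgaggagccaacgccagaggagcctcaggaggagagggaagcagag
Il11: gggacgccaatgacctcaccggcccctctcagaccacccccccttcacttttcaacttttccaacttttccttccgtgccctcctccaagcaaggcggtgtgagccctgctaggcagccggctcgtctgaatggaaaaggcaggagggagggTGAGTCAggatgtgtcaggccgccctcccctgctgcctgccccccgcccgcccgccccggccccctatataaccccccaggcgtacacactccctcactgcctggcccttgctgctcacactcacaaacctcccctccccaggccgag
Osmr: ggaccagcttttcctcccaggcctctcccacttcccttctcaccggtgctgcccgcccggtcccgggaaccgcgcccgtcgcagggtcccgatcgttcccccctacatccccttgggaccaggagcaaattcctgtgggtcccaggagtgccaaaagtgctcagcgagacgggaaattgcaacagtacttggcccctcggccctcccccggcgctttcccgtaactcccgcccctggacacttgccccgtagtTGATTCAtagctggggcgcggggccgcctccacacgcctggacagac
Socs3: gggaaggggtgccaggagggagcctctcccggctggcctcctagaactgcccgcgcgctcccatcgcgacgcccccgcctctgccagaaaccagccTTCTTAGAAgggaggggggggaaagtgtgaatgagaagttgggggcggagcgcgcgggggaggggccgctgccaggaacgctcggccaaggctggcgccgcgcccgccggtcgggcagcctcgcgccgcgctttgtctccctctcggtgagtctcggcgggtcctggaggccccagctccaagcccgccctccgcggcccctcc

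*Il6*, *Osm* and *Lif* each had the largest share of their UMIs in another class than the chain their product uses beside gp130. *Il11* had it in the same class as its chain. Of the *Il6* UMIs, 96.5%, 90.4% and 74.8% were in fibroblast-like cells on Days 3, 7 and 14, and these cells held 56.4%, 63% and 61% of all UMIs. Of the *Osm* UMIs, 64.7%, 70.9% and 91.5% were in macrophage-like cells, which held 34.2%, 26.9% and 12.8% of all UMIs. Neutrophil-like cells added 27.4% of the *Osm* UMIs on Day 3 from 3.31% of all UMIs. When each library was clustered alone, more Day 3 cells stayed unnamed, and the macrophage-like share of *Osm* UMIs on Day 3 was 37.7%. The receptor chain for oncostatin M had the opposite source, with 96.8%, 92.6% and 77.8% of the *Osmr* UMIs in fibroblast-like cells. *Il6ra* likewise lay away from its ligand, with 77.6%, 70.4% and 51.1% of its UMIs in macrophage-like cells. *Lif* and *Lifr* were divided in the same way, with 89.2%, 79.9% and 75.8% of the *Lif* UMIs in fibroblast-like cells and 66.7%, 59.9% and 47.4% of the *Lifr* UMIs in macrophage-like cells. Fibroblast-like cells held 95.2%, 92.7% and 78.6% of the *Il11* UMIs and 94.4%, 91.8% and 77.8% of the *Il11ra1* UMIs. They also held 90%, 80.7% and 66.9% of the UMIs of the shared chain *Il6st*. These shares depend on the number of cells of a class as well as on the level in each. On Day 14 unnamed clusters held 14% of all UMIs, and 1 of them, with 1361 cells, had all 8 fibroblast markers. They held 5.06% of the *Il6*, 11.6% of the *Lif*, 10% of the *Il11*, 14.5% of the *Il6st* and 7.81% of the *Osmr* UMIs of that library. Pericyte-like cells held 15.8% of its *Il6* UMIs. The lower fibroblast-like shares of Day 14 thus depend in part on which clusters were named.

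**Figure D1:**
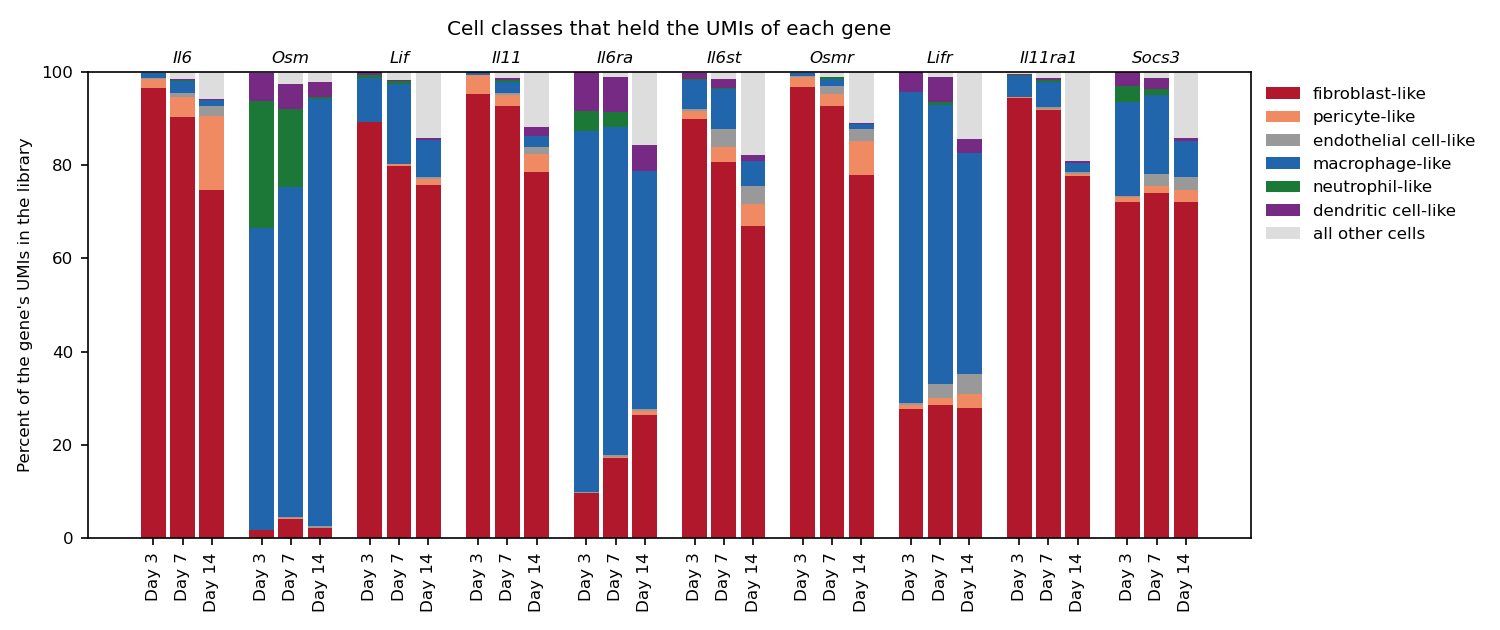
Percent of the UMIs of each gene (vertical axis) that lay in each cell class, 1 bar per library; grey is all other cells, unnamed clusters included. *Il6*, *Lif*, *Osmr* and *Il11ra1* bars are mostly fibroblast-like, with 74.8% or more, and *Osm* bars mostly macrophage-like, with a neutrophil-like part of 27.4% on Day 3.

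**Figure D2:**
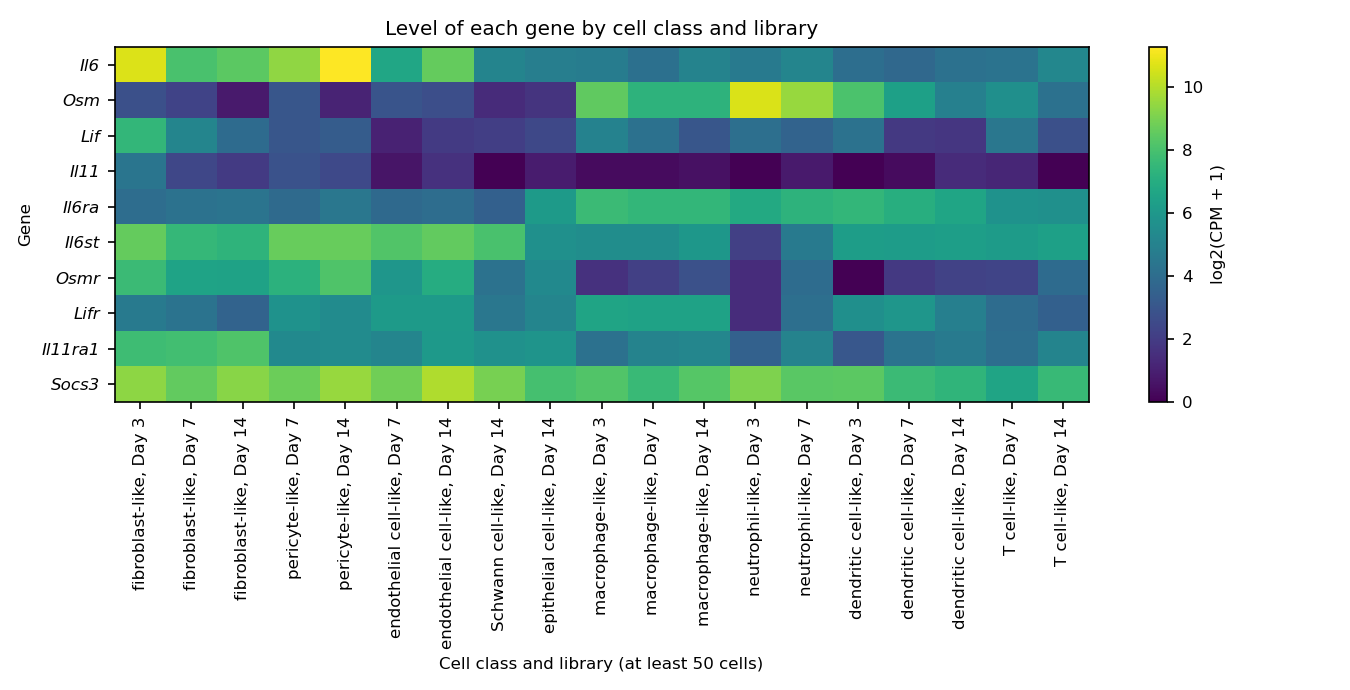
Level of each gene as log2(CPM + 1) (colour) in each cell class and library with at least 50 cells. Among these, *Il6* was highest in pericyte-like cells of Day 14 (2447 CPM) and fibroblast-like cells of Day 3 (1620.3 CPM), and *Osm* in neutrophil-like cells of Day 3 (1568 CPM).

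*Il6*, which encodes an inducer of the acute-phase response, lies at chr5:30013114-30019981, plus strand (GRCm38, as all positions given here). In fibroblast-like cells its level was 1620.3 CPM on Day 3 (1603 to 1638), 262 CPM on Day 7 (258 to 266) and 337 CPM on Day 14 (333 to 342). The Day 3 library was the highest, and the Day 7 level was 0.162 times it, a log2 ratio of -2.63 (-2.66 to -2.60). The log2 ratio of Day 14 over Day 7 was 0.37 (0.34 to 0.39), and its sign differed between single clusters of this class. Pericyte-like cells, which wrap small vessels, stood above fibroblast-like cells on both days with at least 50 of them. They held 662 CPM on Day 7 (616 to 711) and 2447 CPM on Day 14 (2374 to 2522), from 180 and 424 cells, a log2 ratio of 1.89 (1.77 to 2.0). Endothelial cell-like cells, which line the vessels, had 99.3 and 381 CPM on Days 7 and 14, a log2 ratio of 1.94 (1.69 to 2.19). The 8 fibroblast markers in endothelial cell-like cells summed to 5821 and 13758 CPM in these libraries, all found in both. As a share of the fibroblast-like level, *Il6* stood at 37.9% and 113%, above the highest marker at 6.54% and 12.1%. Pericyte-like cells, with more *Il6* and a log2 ratio of 1.89, were not compared as a source in this way. The part of RNA from either class in the endothelial cell-like ratio was not tested.

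In the immune classes *Il6* was low, from 12.9 to 35.7 CPM in macrophage-like, neutrophil-like, dendritic cell-like and T cell-like cells wherever a library held at least 50 of them. Macrophage-like cells had 25.6, 16.8 and 31.5 CPM on Days 3, 7 and 14, which is 1.58%, 6.42% and 9.33% of the fibroblast-like level. The 8 fibroblast markers in these cells stood at a median of 0.675%, 3.65% and 4.47% of their own fibroblast-like level, with 1.04%, 5.01% and 5.88% for the highest marker. *Il6* was thus above the marker range in each library, and the part of free RNA and of undetected doublets in this low level was not tested. The 32 mast cell-like cells of Day 7 held 142 *Il6* UMIs, or 3807 CPM (3207 to 4488), with at least 1 UMI in 24 of the 32 cells and at most 18 in a cell. This class depended on the settings. It had 36 cells on Day 7 where each library was clustered alone, 1 with at most 5% mitochondrial UMIs, 2 each with at most 20%, with doublets kept and at resolution 0.5, and 0 with at least 500 genes per cell, so that its levels are not read as a result.

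The *Il6* message was spread over most fibroblast-like cells of Day 3. At least 1 UMI was found in 385 of 416 cells, the richest cell held 543, and the richest 5% (21 cells) held 20% of the UMIs. After every cell was thinned to 500 UMIs, to set depth equal, 45.2%, 9.81% and 12.7% of fibroblast-like cells had an *Il6* UMI on Days 3, 7 and 14, where the unthinned shares were 92.5%, 51.4% and 55.4%. The order of the libraries was the same on both scales. Macrophage-like cells at the thinned depth had 1.18%, 0.903% and 1.95%. Pericyte-like cells had 23.9% on Day 7 and 54.7% on Day 14.

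*Lif*, a cytokine that keeps mouse embryonic stem cells undifferentiated, and *Il11*, a relative linked to fibrosis, were the other ligands of fibroblast-like cells. *Lif* (chr11:4257557-4272514, plus strand) lies 16.5 kb from *Osm* (chr11:4236420-4241026, plus strand), and *Il11* lies at chr7:4772373-4782859, minus strand. The *Lif* level in fibroblast-like cells was 172 CPM on Day 3 (166 to 178), 34 CPM on Day 7 (32.6 to 35.5) and 14.2 CPM on Day 14 (13.3 to 15.2). Each library lay below the one before it, with log2 ratios of -2.34 (-2.42 to -2.26) and -1.26 (-1.38 to -1.14). *Il11* was lower, at 19.7, 4.22 and 2.78 CPM, with log2 ratios of -2.22 (-2.45 to -1.99) and -0.60 (-0.89 to -0.32). Its UMIs were concentrated, since 21 fibroblast-like cells of Day 3 held 89.1% of the 395 UMIs and 1 of them held 106.

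*Lif* was also found in macrophage-like cells, at 30.3, 17.1 and 7.07 CPM on Days 3, 7 and 14. On Day 3 this was 17.6% of the fibroblast-like level, where the highest fibroblast marker stood at 1.04%. The log2 ratios were -0.82 (-1.03 to -0.62) and -1.28 (-1.62 to -0.94), so the libraries had the same order as in fibroblast-like cells. Free RNA and undetected doublets were not tested as a part of the macrophage-like *Lif* level. Within macrophage-like cells of Day 7, *Lif* was highest in cluster 4 (35.8 CPM, led by *Arg1* and *Cxcl3*) and cluster 6 (31.9 CPM, led by *Cbr2* and *Ednrb*) and at most 16.7 CPM in the other macrophage-like clusters. *Il11* was near its floor there, with 3, 7 and 5 UMIs in the 3 libraries.

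*Osm* encodes oncostatin M, a product of activated myeloid cells and T cells. Among classes with at least 50 cells its level was highest in neutrophil-like cells, at 1568 CPM on Day 3 (1497 to 1641) and 724 CPM on Day 7 (679 to 770.4), from 866 and 1661 cells. The log2 ratio was -1.12 (-1.23 to -1.0). It was under 2-fold with at least 500 genes per cell (-0.77), which left 486 and 91 neutrophil-like cells on Days 3 and 7. It was also under 2-fold with scaling that leaves out the 50 most abundant genes (-0.72). The median neutrophil-like cell had 1230.5 and 713 UMIs in these libraries. In this class the 8 fibroblast markers summed to 828 and 10049 CPM, and the 8 neutrophil markers to 43695 and 30568 CPM. The part of these differences in the *Osm* ratio was not tested. On Day 14 only 21 neutrophil-like cells were present, with 9 *Osm* UMIs. Macrophage-like cells had 358 CPM on Day 3 (348 to 369), 153 CPM on Day 7 (149 to 158) and 153 CPM on Day 14 (146 to 159.6). Over the class, the Day 3 library was highest and the other two could not be told apart by counting error, with log2 ratios of -1.22 (-1.29 to -1.16) and -0.01 (-0.09 to 0.07). Dendritic cell-like cells had 266, 84.5 and 28.5 CPM, with log2 ratios of -1.66 (-1.87 to -1.44) and -1.57 (-1.96 to -1.19). Mast cell-like cells of Day 7 held 98 *Osm* UMIs, or 2628 CPM (2133 to 3202), in 21 of 32 cells, with the same dependence on the settings.

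Stromal cells had almost no *Osm*. Fibroblast-like cells had 5.68, 3.79 and 0.740 CPM, which is 1.58%, 2.47% and 0.485% of the macrophage-like level. The 8 macrophage markers in fibroblast-like cells ran from 0.345% to 9.70% of their macrophage-like level on Day 3, from 1.77% to 3.97% on Day 7 and from 0.383% to 1.94% on Day 14, so *Osm* lay inside the marker range in each library. The median marker stood at 0.518%, 2.20% and 0.551%, which *Osm* exceeded on Days 3 and 7. Of the fibroblast-like cells of Day 3, 21 held 57.9% of the 114 *Osm* UMIs of that class, and 1 cell held 12. The part of free RNA and of undetected doublets in this level was not tested. After thinning to 500 UMIs, 37.8% and 24.8% of neutrophil-like cells on Days 3 and 7 had an *Osm* UMI, and 13.2%, 6.94% and 6.97% of macrophage-like cells on Days 3, 7 and 14. Fibroblast-like cells had 0.481%, 0.135% and 0.0501% at this depth. The unthinned shares were 49.7%, 24.9% and 30.9% in macrophage-like cells, at median depths of 4068, 2540 and 3533 UMIs, and 16.6%, 3.48% and 0.684% in fibroblast-like cells.

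**Figure D3:**
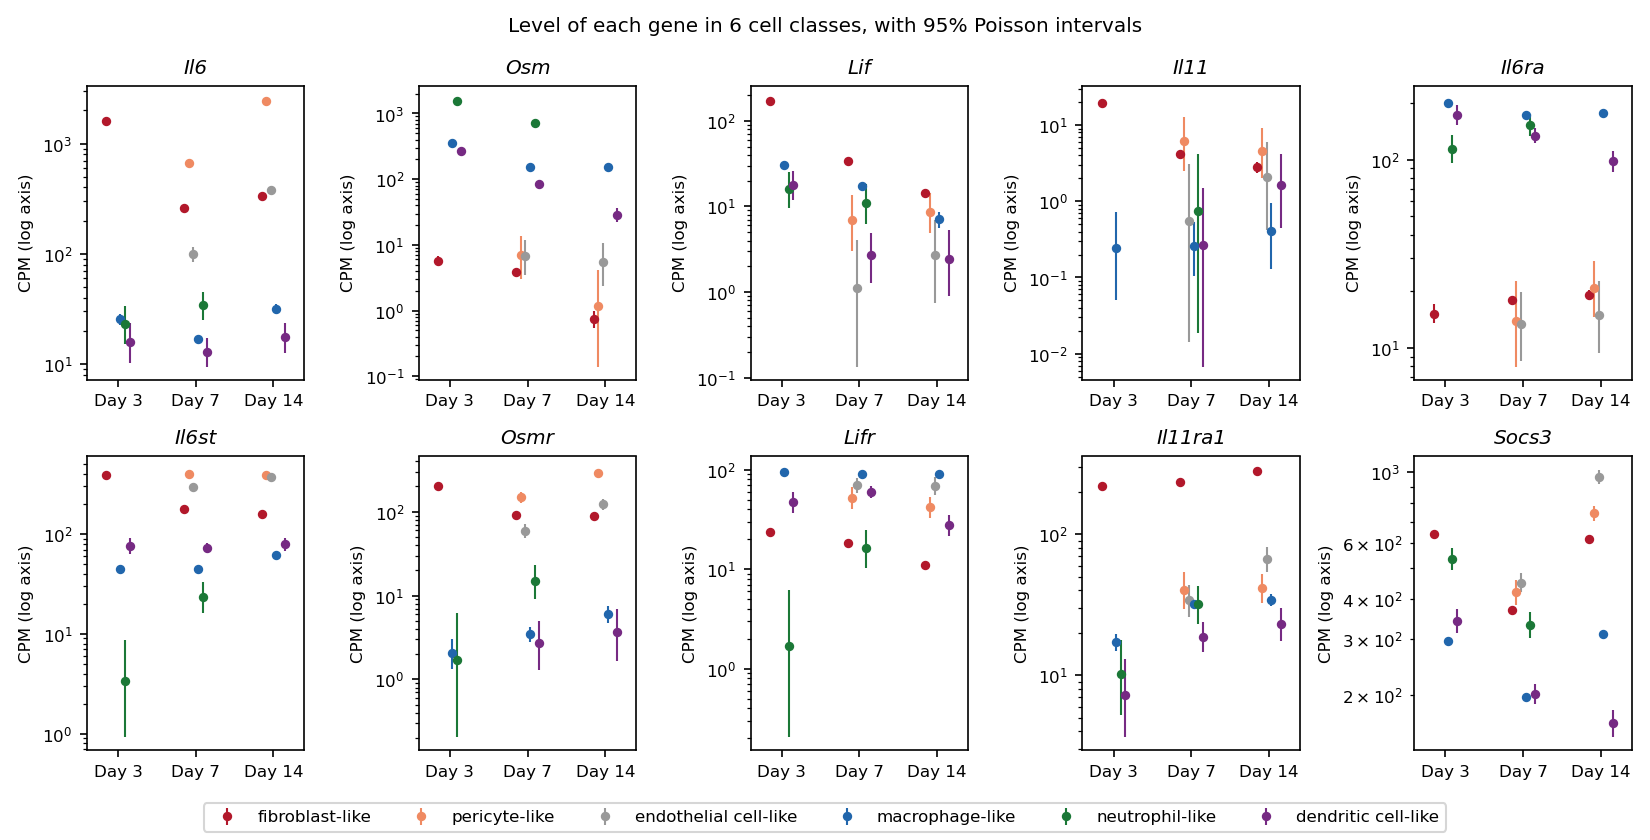
Level of each gene in CPM (log axis) in the 3 libraries for 6 cell classes, with 95% Poisson intervals; classes with under 50 cells in a library, and levels of 0, are left out. Fibroblast-like *Il6*, *Lif* and *Il11* were highest on Day 3, pericyte-like *Il6* was 2447 CPM on Day 14, and *Osm* was at least 28.5 CPM in the myeloid classes and at most 6.99 CPM in the stromal ones.

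*Il6st*, the shared chain gp130 (chr13:112464070-112510086, plus strand), was found in every class with at least 50 cells. Fibroblast-like cells had 389.8 CPM on Day 3 (381 to 399), 179 CPM on Day 7 (176 to 183) and 160.0 CPM on Day 14 (157 to 163), with log2 ratios of -1.12 (-1.16 to -1.08) and -0.16 (-0.20 to -0.12). Pericyte-like cells stood higher, at 402 and 395 CPM on Days 7 and 14, which could not be told apart by counting error (-0.02, -0.20 to 0.15). Endothelial cell-like cells had 297 and 373 CPM, and Schwann cell-like cells, the glia of skin nerves, 261 CPM on Day 14. Macrophage-like cells had 44.8, 44.4 and 61.2 CPM, or 11.5%, 24.8% and 38.3% of the fibroblast-like level. That is above the fibroblast markers, which reached at most 5.88% there. Pericyte-like and endothelial cell-like cells were not compared as sources in this way. Free RNA and undetected doublets were not tested as a part of the macrophage-like level. Neutrophil-like cells of Day 3 had 4 *Il6st* UMIs, or 3.39 CPM (0.924 to 8.68).

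*Osmr* (chr15:6813577-6874969, minus strand), which lies 215.6 kb from *Lifr*, was mainly a stromal gene. Fibroblast-like cells had 201 CPM on Day 3 (194 to 207), 91.4 CPM on Day 7 (89 to 93.8) and 89.1 CPM on Day 14 (86.7 to 91.5). The Day 3 library was highest, with a log2 ratio of -1.13 (-1.19 to -1.08), and the later libraries could not be told apart by counting error (-0.04, -0.09 to 0.02). The unnamed clusters of Day 14, at 38.9 CPM, are not counted in this ratio, and the largest of them had all 8 fibroblast markers. The ratio with them counted is not given here. Pericyte-like cells had 148 and 289 CPM on Days 7 and 14, a log2 ratio of 0.96 (0.71 to 1.22), and endothelial cell-like cells 59.1 and 123 CPM, a log2 ratio of 1.06 (0.71 to 1.42). The endothelial cell-like levels were 64.7% and 138% of the fibroblast-like ones, again above the fibroblast markers, whose sum in these cells was also higher on Day 14. Epithelial cell-like cells of Day 14 had 39.2 CPM, which is 44.1% of the fibroblast-like level, where the highest fibroblast marker stood at 8.03%. Macrophage-like cells had 2.05, 3.45 and 5.95 CPM, or 1.02%, 3.77% and 6.68% of the fibroblast-like level. These values lay inside the marker range on Days 3 and 7, and above its upper end of 5.88% on Day 14. Free RNA and undetected doublets were not tested as a part of the endothelial cell-like, epithelial cell-like and macrophage-like levels.

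*Il6ra*, the alpha chain for interleukin-6 (chr3:89864059-89913196, minus strand), was mainly a myeloid gene. Macrophage-like cells had 200.5 CPM on Day 3 (193 to 209), 172 CPM on Day 7 (167 to 177) and 177 CPM on Day 14 (169.5 to 184). The first step exceeded counting error and the next did not, with log2 ratios of -0.22 (-0.29 to -0.15) and 0.04 (-0.03 to 0.11). The first changes sign where the 50 most abundant genes are left out of the scaling, which shifted every macrophage-like ratio of these libraries by 0.27. Neutrophil-like cells had 114 and 153 CPM on Days 3 and 7, and dendritic cell-like cells 173, 134 and 97.8 CPM on Days 3, 7 and 14. Epithelial cell-like cells had 69.6 CPM on Day 14. Fibroblast-like cells had 15.2, 17.9 and 19.1 CPM, which is 7.60%, 10.4% and 10.8% of the macrophage-like level. This lay above the highest macrophage marker on Days 7 and 14 (3.97% and 1.94%) and inside the marker range on Day 3. Free RNA and undetected doublets were not tested as a part of the fibroblast-like level.

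*Lifr* (chr15:7090614-7197489, plus strand) had 93.7, 89.8 and 89.3 CPM in macrophage-like cells on Days 3, 7 and 14. Over the class, the 3 libraries could not be told apart by counting error on this scale, with log2 ratios of -0.06 (-0.16 to 0.04) and -0.01 (-0.11 to 0.09), whereas single clusters differed. Endothelial cell-like cells had 69.7 and 68.5 CPM on Days 7 and 14. Fibroblast-like cells had 23.6, 18.3 and 11 CPM, each library below the one before, with log2 ratios of -0.37 (-0.52 to -0.21) and -0.74 (-0.88 to -0.60). Among classes with at least 50 cells, the gene for the ligand was thus highest in fibroblast-like cells and the gene for its receptor chain in macrophage-like cells.

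*Il11ra1* (chr4:41699989-41769474, plus strand), the alpha chain for interleukin-11, was mainly a fibroblast-like gene, at 219 CPM on Day 3 (213 to 226), 233 CPM on Day 7 (229 to 237) and 282 CPM on Day 14 (278 to 286). Unlike its ligand it was higher in each later library, with log2 ratios of 0.09 (0.04 to 0.14) and 0.27 (0.24 to 0.31). Its level is uncertain, since 39.2% of the 551 stretches of 50 bases in the last 600 bases of its transcripts also occur in *Il11ra2* or *Gm13305*, and reads that match several genes are not counted for any of them by the counting tool's default. For *Lifr* this share was 0.849%, and for the other members it was 0. In macrophage-like cells *Il11ra1* had 17.2, 32.1 and 34.4 CPM on Days 3, 7 and 14. Fibroblast markers in macrophage-like cells summed to 419, 3969.9 and 6234.5 CPM in these libraries, and their part in the *Il11ra1* levels was not tested.

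Fibroblast-like cells of Day 7 had 5 of the 10 members at least 2-fold lower than those of Day 3 (*Il6*, *Lif*, *Il11*, *Osmr* and *Il6st*) and 0 at least 2-fold higher, where 10.9% of 15634 genes were lower and 14.5% higher. The median log2 ratio was -0.96 over the members and -0.07 over all genes. Since the members were chosen with earlier results of these data known, this contrast with all genes is a description only. For Day 14 over Day 7, 2 of 10 members were lower (*Lif* and *Osm*) and 0 higher, against 10.1% lower and 9.92% higher of 16686 genes, with medians of -0.10 and -0.11. In macrophage-like cells 1 member (*Osm*) was lower on Day 7 than on Day 3 and 0 higher, against 5.19% lower and 15.7% higher of 13537 genes, with medians of -0.14 and 0.05. For Day 14 over Day 7, 1 member (*Lif*) was lower and 0 higher, against 7.29% and 7.55% of 13942 genes, with medians of 0.28 and -0.10. In the last 3 comparisons the counts of 1 or 2 members are not read as a result. Scaling without the 50 most abundant genes shifted every log2 ratio of Day 7 over Day 3 by 0.22 in fibroblast-like cells, which put *Osmr* (-0.91) and *Il6st* (-0.90) under 2-fold, and by 0.27 in macrophage-like cells, which put *Osm* at -0.96. In macrophage-like cells the shift also took *Osmr* and *Il11ra1* over 2-fold, from main log2 ratios of 0.75 and 0.90.

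Different clusters made up a class on different days, so the same cluster was also compared between libraries. Of the 416 fibroblast-like cells of Day 3, 367 lay in cluster 16, led by *Cxcl5* and *Saa3* and with *Top2a* of dividing cells among its leading genes, and the Day 7 library had 504 cells in it. Within this cluster *Il6* was 1676 CPM on Day 3 and 165 on Day 7, a log2 ratio of -3.35 (-3.43 to -3.26). *Lif* was 181 and 46.9 CPM (-1.95, -2.11 to -1.78). *Osmr* was 204 and 93.6 CPM (-1.13, -1.25 to -1.01), and *Il6st* 392 and 157 CPM (-1.32, -1.41 to -1.23). The difference between the libraries was thus present inside 1 cluster for these 4 genes. Whether the mix of dividing and other cells inside cluster 16 differed between the libraries was not tested. *Il11ra1* had the opposite sign to its class ratio there, at 218 and 188 CPM (-0.21, -0.30 to -0.12), and *Lifr* did not differ beyond counting error (0.13, -0.13 to 0.39).

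Among the fibroblast-like clusters of Day 7 with at least 50 cells, *Il6* ran from 31.8 CPM in cluster 18 to 435 CPM in cluster 3, led by *C3* and with the complement genes *C4b* and *Cfb* among its leading genes. The largest of them, cluster 2, led by *Tnn* and *Tnc*, had 162 CPM. *Lif* was 50.5 CPM in cluster 2 and 46.9 in cluster 16, and 20.2, 17 and 8.96 CPM in clusters 0, 3 and 8, whose *Il6* was 301, 435 and 226 CPM. The values of cluster 18 rest on 4 *Il6* and 7 *Lif* UMIs in 65 cells. On Day 14, *Il6* was 402 CPM in cluster 8 (led by *Akr1c18* and *Pla1a*), 386 in cluster 3 and 349 in cluster 0 (led by *Mgp* and *Cilp*). It was 27.3 CPM in cluster 18, led by *Prlr* and *Slc26a7* and with *Wif1*, *Bmp4* and *Lef1* among its leading genes. In this cluster 7 of the 8 fibroblast markers were found by the naming rule, and its 751 Day 14 cells are part of the fibroblast-like levels. The paper lists mesenchymal cells, marked by *Bmp4*, apart from fibroblasts, and whether cluster 18 is that class was not tested. *Osmr* in cluster 18 was 32.2 CPM, against 71.6 to 104 CPM in the other fibroblast-like clusters of that library, whereas *Il6ra* there was 84.2 CPM, against 4.77 to 35.2 CPM. Between Day 7 and Day 14 the mix of clusters changed, with cluster 0 going from 200 to 3401 cells and cluster 2 from 2321 to 80. The *Il6* log2 ratio of Day 14 over Day 7 lay below 0 in clusters 2 and 3, at -0.64 (-0.97 to -0.34) and -0.17 (-0.25 to -0.09), and above 0 in clusters 0 and 8, at 0.22 (0.09 to 0.34) and 0.83 (0.74 to 0.92), so the higher class level was not shared by every cluster. *Lif* was lower in clusters 2, 3 and 18 (-1.94, -1.17 and, from the few UMIs of cluster 18, -5.39) and higher in cluster 8 (0.50, 0.05 to 0.97). *Osmr* was lower in cluster 3 (-0.21, -0.39 to -0.04) and higher in cluster 8 (0.48, 0.33 to 0.64). *Socs3* was higher by more than counting error in clusters 0, 2, 3 and 8, at 0.19, 0.22, 0.81 and 0.80, and not in cluster 18 (-0.04, -0.34 to 0.27). An unnamed cluster of 1361 Day 14 cells, in which all 8 fibroblast markers were found and which *Igfbp2* and *Gal* led, had 95.9 CPM of *Il6* and 36.9 CPM of *Osmr*.

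Among the macrophage-like clusters of Day 3, *Osm* was 427 CPM in cluster 13 (led by *Rsad2* and *Ms4a4c*), 388 in cluster 1 (*Cx3cr1* and *Ly6c2*) and 348 in cluster 4. It was lower in cluster 7 (*Mmp12* and *Cd36*), cluster 6 and cluster 9, at 245, 161 and 77.8 CPM. Clusters 13 and 1 had *Ly6c2* and cluster 4 had *Cxcl3* among their leading genes, which were picked out with the *Osm* levels known. Inside cluster 7 the log2 ratio of Day 7 over Day 3 was -1.25 (-1.55 to -0.94), and inside clusters 13 and 1 it was -1.09 (-1.39 to -0.81) and -0.90 (-1.10 to -0.71). Clusters 6, 4 and 9 had -0.73 (-1.0 to -0.45), -0.23 (-0.36 to -0.11) and 0.15 (-0.70 to 1.14), so that 5 of the 6 lay below 0 by more than counting error. The neutrophil-like clusters 10 and 17 had -0.99 (-1.26 to -0.71) and -0.54 (-0.80 to -0.30). Between Days 7 and 14, *Osm* was lower in clusters 1, 14 and 25 (-0.66, -1.05 and -0.82) and higher in clusters 5 and 6 (0.35 and 0.47), each by more than counting error, where the class ratio was near 0. On Day 14 *Osm* was highest in cluster 5 at 239 CPM, led by *Ccl8* and *Il10*, and lowest in cluster 14 at 58.8 CPM, led by *Retnla* and *Lyz1*. *Lifr* on Day 7 ran from 26.1 CPM in cluster 7 to 206 in cluster 6, which has *Lyve1*, *Cd163* and *Folr2* among its leading genes, while *Il6ra* ran from 102 to 225 CPM. Within clusters, the *Lifr* ratio of Day 7 over Day 3 was above 0 in cluster 6, at 0.56 (0.29 to 0.84), and below 0 in clusters 4 and 13, at -0.40 (-0.70 to -0.10) and -0.93 (-1.47 to -0.44). That of Day 14 over Day 7 was below 0 in all 7 macrophage-like clusters compared, and by more than counting error in clusters 5, 6 and 25 (-0.49, -0.55 and -0.61). The *Il6ra* ratio of Day 7 over Day 3 was below 0 by more than counting error in clusters 1, 4 and 13 (-0.33, -0.48 and -0.54) and above it in cluster 9 (0.99, 0.25 to 1.85). Outside the macrophage-like cells, dendritic cell-like cluster 27, led by *Siglech* and *Ccr9*, had 331 CPM of *Lifr* on Day 7 from 95 cells.

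**Figure D4:**
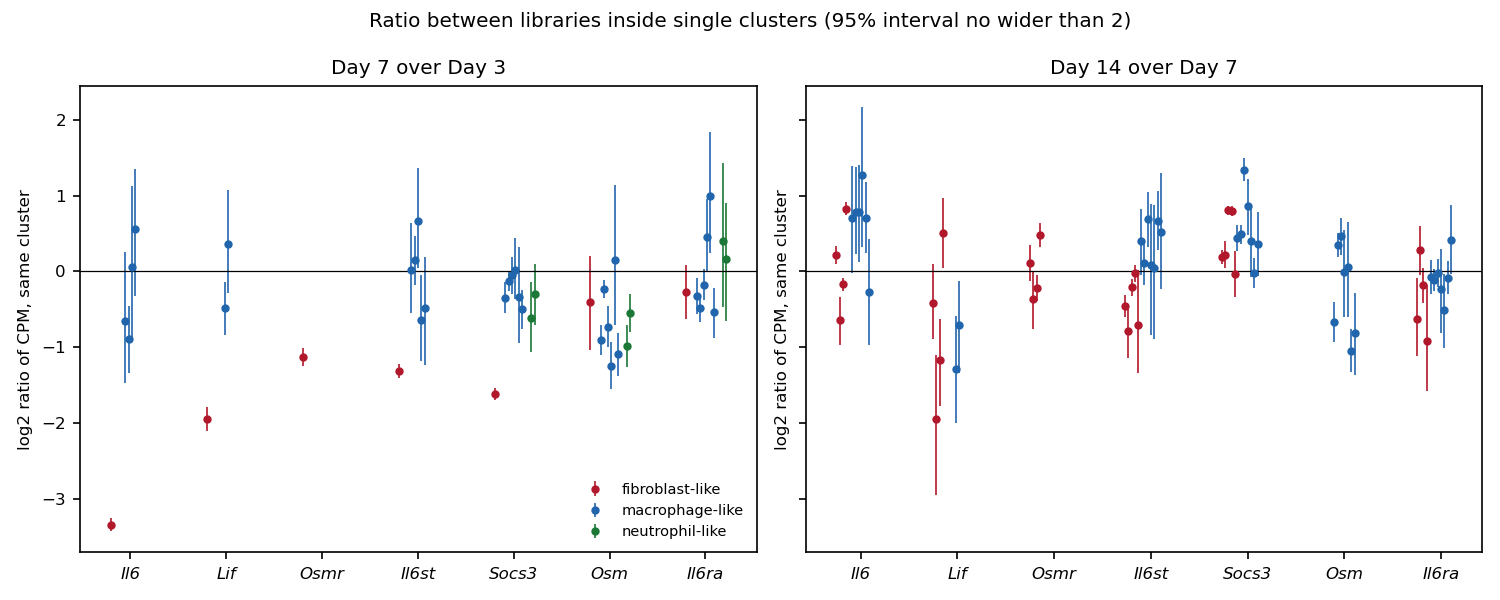
Log2 ratio of CPM (vertical axis) between 2 libraries inside single clusters with at least 50 cells in each, 1 point per cluster and gene with its 95% interval; those with an interval wider than 2 are left out. In cluster 16, the single fibroblast-like point of Day 7 over Day 3, *Il6* lay at -3.35, and 5 of the 6 macrophage-like points of *Osm* lay below 0.

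The chains of the oncostatin M receptor were found in the same cells about as often as the product of their shares gives. After thinning to 2000 UMIs, 33.2% of 404 fibroblast-like cells of Day 3 had an *Osmr* UMI and 46.8% an *Il6st* UMI, and 17.1% had both, where the product is 15.5%. On Day 7, 4.87% of 5806 cells had both (product 4.69%), and on Day 14, 4.33% of 5687 (product 4.08%). Pericyte-like cells of Day 14 had both in 20% of 370 cells (product 19.8%). Of these libraries, both chains were seen together most often in pericyte-like cells of Day 14 and fibroblast-like cells of Day 3. In macrophage-like cells the pair was found in 0 of 2136, 5 of 6338 and 4 of 2538 cells on Days 3, 7 and 14, where a count of 0 leaves room for 0.140% at most on Day 3. The same cells had *Il6ra* with *Il6st* in 3.18%, 2.60% and 3.62%, against products of 2.54%, 2.47% and 3.47%. Endothelial cell-like cells of Day 7 had *Lifr* with *Il6st* in 12.1% of 206 cells, where the product was 7.29%. Captured messages are few per cell, so these shares describe detection and not the protein complexes.

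*Socs3*, the brake on gp130 (chr11:117966079-117970047, minus strand), was found in every class with at least 50 cells. Fibroblast-like cells had 642 CPM on Day 3 (631 to 653), 370.3 CPM on Day 7 (366 to 375) and 617 CPM on Day 14 (610.4 to 623). The Day 7 library was the lowest, with log2 ratios of -0.79 (-0.82 to -0.76) and 0.74 (0.71 to 0.76). Inside cluster 16 it was 642 and 209 CPM on Days 3 and 7 (-1.62, -1.70 to -1.54). Macrophage-like cells also had their lowest level on Day 7, at 294, 197 and 311 CPM, with log2 ratios of -0.58 (-0.64 to -0.51) and 0.65 (0.59 to 0.71). The first was closer to 0 inside each of the 6 clusters compared, where the largest cluster of Day 3, cluster 4, had -0.12 (-0.25 to 0.01), clusters 6 and 7 had -0.05 (-0.29 to 0.20) and 0.03 (-0.36 to 0.44), and cluster 13 was furthest from 0 (-0.50, -0.76 to -0.24). The ratios of Day 14 over Day 7 were lowest in cluster 14, at -0.02 (-0.22 to 0.18), and highest in cluster 6, at 1.35 (1.20 to 1.49). Pericyte-like cells had 419 and 744 CPM on Days 7 and 14 (0.83, 0.67 to 0.98). Endothelial cell-like cells had 450.0 and 965 CPM (1.10, 0.97 to 1.23), the latter the highest *Socs3* level of a class with at least 50 cells. Neutrophil-like cells had 534 and 333 CPM on Days 3 and 7.

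Immediate-early and heat-shock genes, which tissue dissociation can induce, were measured beside *Socs3*. In fibroblast-like cells the 12 listed genes summed to 11505, 9985 and 12079.8 CPM on Days 3, 7 and 14, and in macrophage-like cells to 14150.5, 10191 and 12189 CPM. Their sum too was lowest on Day 7 in both classes, which did not hold for each gene of the list. From Day 7 to Day 14 the sum went from 9842 to 14402 CPM in pericyte-like and from 6119 to 11112 CPM in endothelial cell-like cells, where *Il6*, *Osmr* and *Socs3* were higher on Day 14. In neutrophil-like cells it was 22834 CPM on Day 3 and 13630 CPM on Day 7, where *Osm* was lower on Day 7. In dendritic cell-like cells it was 10627, 7031 and 6504.5 CPM on Days 3, 7 and 14, where *Osm* was lower in each later library. The part of these genes in the levels of *Socs3*, *Il6*, *Osmr* and *Osm* was not tested. Of the 12, 4 were at least 2-fold higher and 1 lower on Day 7 than on Day 3 in fibroblast-like cells (median log2 ratio 0.28), where 14.5% of all genes were higher and 10.9% lower, and 0 were higher and 2 lower in macrophage-like cells (median -0.11), where these shares were 15.7% and 5.19%. For Day 14 over Day 7, 0 of the 12 differed 2-fold in either class, with medians of 0.31 and 0.34. Of all genes, 9.92% were higher and 10.1% lower in fibroblast-like cells, with a median of -0.11. These shares were 7.55% and 7.29% in macrophage-like cells, with a median of -0.10. The count of 0 is not read as a result. In fibroblast-like cells *Fos* was 1601, 1646 and 1939 CPM, *Junb* 1728, 1044 and 1401 CPM, and *Egr1* 2104, 1701 and 1662 CPM. Of these 3, *Junb* had the order of *Socs3*. In macrophage-like cells *Fos* was 2074, 1749.7 and 1930.0 CPM, *Junb* 4039, 1995 and 2337 CPM, and *Egr1* 181, 346 and 458 CPM.

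The rest of the pathway was read from a list of 39 genes in 5 groups, of which 37 had at least 10 UMIs over the Day 3 and Day 7 libraries in fibroblast-like cells. Of these, 2 were at least 2-fold higher and 11 lower on Day 7, with a median log2 ratio of -0.56. Of all genes, 14.5% were higher and 10.9% lower, with a median of -0.07. Among the 15 genes known to respond to STAT3, 7 were lower and 0 higher, with a median of -0.94. The list was chosen with earlier results of these data known, and its genes were not compared inside single clusters. Among genes with at least 10 UMIs in each library, to which the rankings given here are limited, the lowest ratios were those of *Lcn2*, which encodes an iron-withholding defence protein, at 25.6 and 1.80 CPM (-3.83, -4.13 to -3.53), and *Saa3*, an acute-phase protein, at 5416 and 565 CPM (-3.26, -3.28 to -3.24). The highest ratios were those of *Ptpn6*, a phosphatase that damps JAK signalling, at 1.24 and 3.24 CPM (1.38, 0.78 to 2.04), and *Ctf1*, a ligand of the family, at 1.15 and 1.41 CPM (0.30, -0.38 to 1.03). The other gene at least 2-fold higher was *Ebi3*, a subunit of interleukin-27, with 3 and 44 UMIs and a log2 ratio of 2.22 (0.58 to 4.55). The 8 macrophage markers in fibroblast-like cells summed to 74.8, 242 and 82.2 CPM on Days 3, 7 and 14, all found in each library. They were highest on Day 7, as was *Ptpn6*, a gene known from blood cells, and their part in the *Ptpn6* ratios was not tested. Among the 12 transducers and brakes, 1 was higher and 2 lower. Of the 5 other ligands with enough UMIs, 1 was higher and 2 lower, and the 3 other receptors and the sheddases *Adam10* and *Adam17*, which can cut *Il6ra* from the cell surface, all lay within 2-fold.

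For Day 14 over Day 7 in fibroblast-like cells, 4 of 37 listed genes were at least 2-fold higher and 6 lower, with a median log2 ratio of -0.14. Of all genes, 9.92% were higher and 10.1% lower, with a median of -0.11, and the counts of listed genes are not read as a result. The highest were *Cebpd*, a transcription factor that responds to STAT3, at 316 and 1078 CPM (1.77, 1.74 to 1.79), and *Socs1*, a brake of the same family as *Socs3*, at 34 and 113 CPM (1.74, 1.67 to 1.81). The lowest were *Saa3*, at 565 and 57.5 CPM (-3.30, -3.35 to -3.25), and *Ptpn6*, at 3.24 and 0.639 CPM (-2.34, -2.88 to -1.84), where the macrophage markers in this class were also lower. *Socs3* and *Socs1* thus both stood higher on Day 14 than on Day 7 in this class. Of the STAT3 group, 2 were higher and 3 lower.

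In macrophage-like cells, 2 of 35 listed genes were at least 2-fold higher and 7 lower on Day 7 than on Day 3, with a median of -0.45, where 15.7% of all genes were higher and 5.19% lower. Of the STAT3 group 1 was higher and 4 lower, and of the transducers and brakes 0 and 3. The lowest were *Cebpb*, a transcription factor of inflammatory genes, at 5477 and 1543 CPM (-1.83, -1.85 to -1.81), and *Vegfa*, an angiogenic factor, at 569 and 199 CPM (-1.51, -1.57 to -1.46). The highest were *Serpina3n*, a protease inhibitor, at 0.984 and 3.97 CPM (2.01, 1.15 to 3.01), and *Ptpn11*, a phosphatase recruited by gp130, at 27.3 and 42.7 CPM (0.65, 0.47 to 0.83). *Cntfr*, a receptor chain, was the other gene at least 2-fold higher, from 1 UMI on Day 3 and 17 on Day 7 (2.94, 0.27 to 8.33). For Day 14 over Day 7, 5 of 36 were higher and 6 lower, with a median of 0.14, against 7.55% and 7.29% of all genes. The lowest were *Saa3*, at 61.3 and 2.09 CPM (-4.87, -5.49 to -4.32), and *Lrg1*, a secreted glycoprotein, at 10 and 1.04 CPM (-3.26, -4.19 to -2.46). The highest were *Cntfr*, at 0.630 and 2.41 CPM (1.94, 1.03 to 2.89), and *Il27ra*, another receptor chain, at 0.816 and 3.05 CPM (1.90, 1.11 to 2.73). Fibroblast markers in macrophage-like cells summed to 419, 3969.9 and 6234 CPM on Days 3, 7 and 14, all 8 found in each library, and their part in the higher *Serpina3n* and *Cntfr* was not tested. *Ebi3*, and *Cntfr* for Day 7 over Day 3, lay outside the rule for named genes and were chosen after their values were seen.

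**Figure D5:**
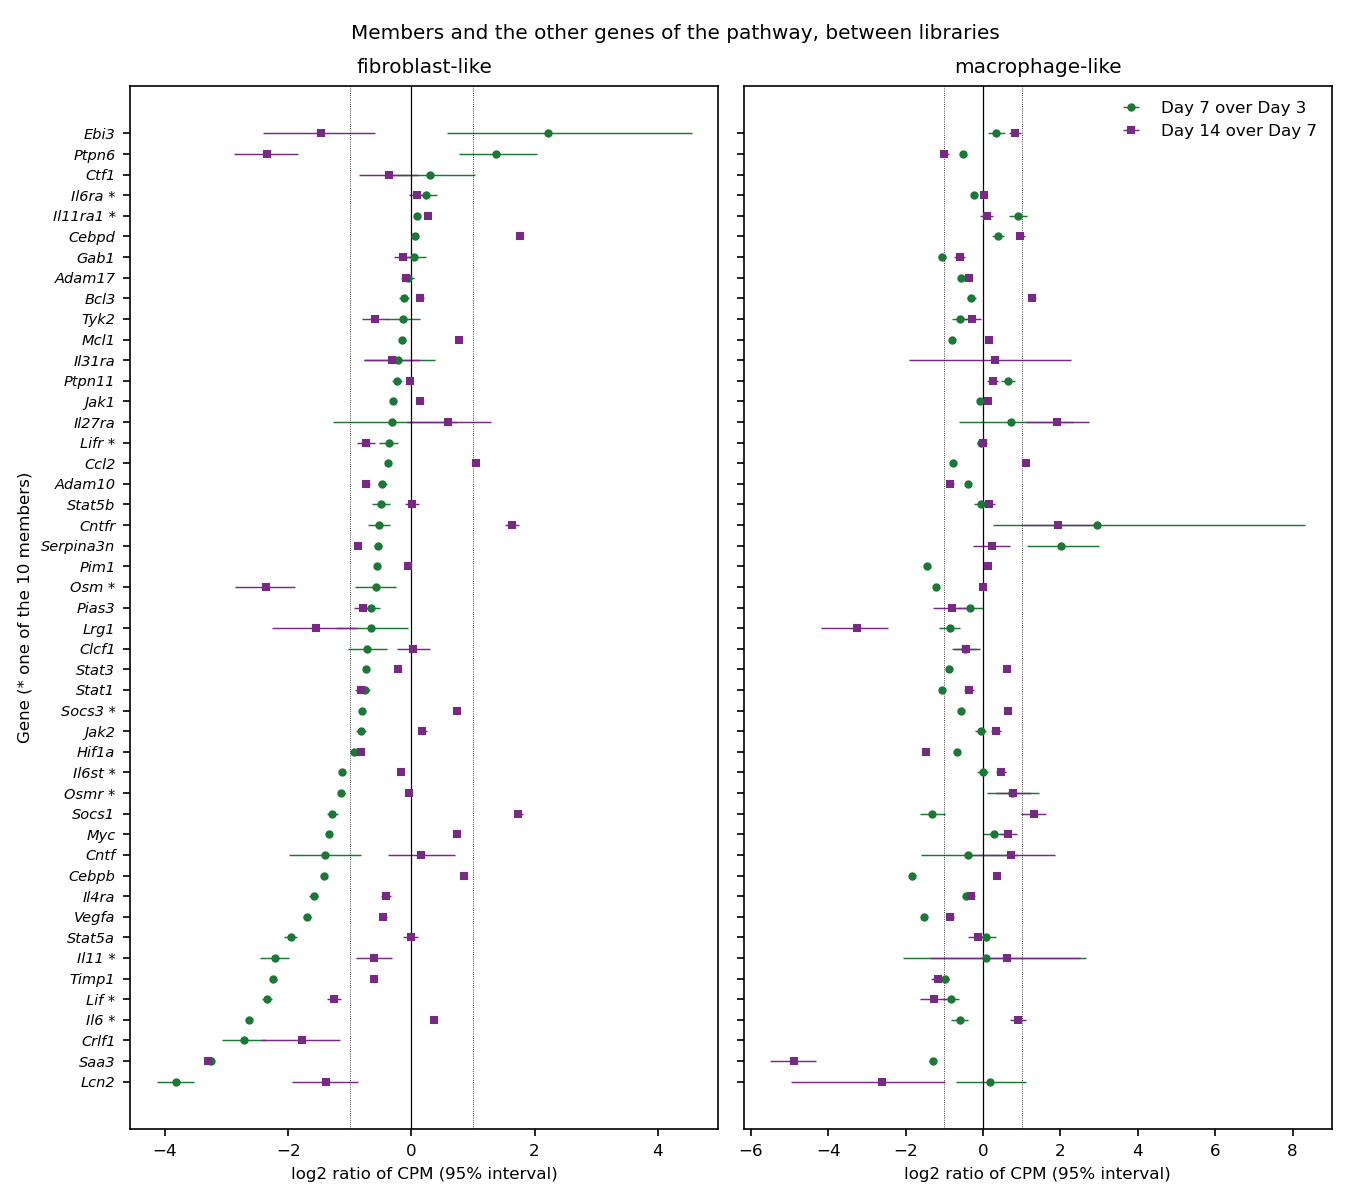
Log2 ratio of CPM (horizontal axis) with 95% intervals for the 10 members (starred) and the listed pathway genes with enough UMIs, in fibroblast-like and macrophage-like cells; dotted lines mark 2-fold. In fibroblast-like cells most points of Day 7 over Day 3 lie left of 0, down to -3.83 for *Lcn2*.

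The genes whose levels followed each member most closely were sought over 22 combinations of class and library, unnamed clusters included, by Pearson's r of log2(CPM + 1) across 10428 genes that reached 20 CPM. The points share libraries and classes, so the values are a description. *Osm* was closest to *Ccr1*, a chemokine receptor of myeloid cells (r = 0.98), with *Lilrb4a* and *Pik3ap1* next. *Osmr* was closest to *Il1r1*, the receptor for interleukin-1 (0.96), followed by *Rhoj* and *Ehd2*. *Il1r1* also stood next to *Il6* (0.92), after *Tbx18* (0.93) and before *Pcdh19*. *Il11ra1* was closest to *Dcn*, a matrix proteoglycan and one of the fibroblast markers (0.95), with *Mmp3* and *Gpc3* next. *Il6ra* was closest to *Prkcd*, *Btk* and *Irf5* (0.93 each), *Il6st* to *Slc25a4* (0.94), *Akap11* and *Anapc5*, and *Lifr* to *Lmbrd2* (0.87), *Nrp2* and *Cttnbp2nl*. The remaining members had lower values, with *Hk2*, *Gm6093* and *Trpc4ap* for *Lif* (0.79 for the first), *Snai1*, *Mbnl2* and *Spaca6* for *Socs3* (0.83) and *Zfp618*, *Gm42679* and *Gpr176* for *Il11* (0.86).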

How the data were processed

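Single-cell suspensions of wound tissue were made into Chromium 3′ v3.1 libraries, 1 per day. Per the labels' processing notes, the authors used Cell Ranger 6.0.0 and the mouse build mm10 (GRCm38), and they deposited 1 matrix of raw UMI counts per library, with 5158, 22924 and 16611 barcodes and 38133650, 120940799 and 112713257 UMIs on Days 3, 7 and 14. The gene annotation is not given in the sources used here.

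From these counts, cells with at least 500 UMIs, at least 200 genes and at most 10% mitochondrial UMIs were kept (4452, 21568 and 14472), and 92, 1978 and 962 called doublets, found by comparison with simulated doublets, were removed. The 3 libraries were clustered together (Python 3.11.15, scikit-learn 1.9.0; 2000 variable genes, 30 components, 15 neighbours, leidenalg 0.10.2 at resolution 1) without batch correction and without the members, the pathway and stress genes, and mitochondrial and ribosomal genes. A cluster was named where at least 3 markers of a class were found and its leading genes did not go against the name; clusters 11, 15 and 31 stayed unnamed (98, 406 and 1863 cells in all on Days 3, 7 and 14). UMIs were summed per class and library. Groups were the days given by the labels. No test was made. Ratios use classes with at least 50 cells in both libraries, and lists count genes with at least 10 UMIs over both. The 10 members were named throughout; of the pathway list, values were given for the 2 highest and the 2 lowest ratios among genes with at least 10 UMIs in each library; of the stress list for *Fos*, *Junb* and *Egr1*; and 3 genes per member by likeness. Other filters, scalings and clusterings were tried. Intervals and limits (3 counts where none was found) cover counting error only. The ratio intervals and the 2-fold calls were tested on simulated Poisson counts, which leave out the clumping of UMIs in single cells. Clustering, naming, doublet calls and thinning were not tested in this way. The members and the lists were chosen with earlier results of these data known.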

Additional observations from a re-analysis of the deposited data

Results flagged for a closer look

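In 2 members, *Il6st* and *Osmr*, Day 7 was at least 2-fold higher than Day 3 in neutrophil-like cells and at least 2-fold lower in fibroblast-like cells. The *Il6st* log2 ratio was 2.80 (1.31 to 4.76) in neutrophil-like cells, from 4 and 32 UMIs, and -1.12 in fibroblast-like cells. The *Osmr* log2 ratio was 3.12 (1.08 to 6.27) in neutrophil-like cells, from 2 and 20 UMIs, and -1.13 in fibroblast-like cells. *Lifr* also had opposite signs but was within 2-fold in fibroblast-like cells, at 3.26 (1.24 to 6.40) in neutrophil-like cells, from 2 and 22 UMIs, and -0.37 (-0.52 to -0.21) in fibroblast-like cells. The neutrophil-like ratio of *Il6* had the opposite sign as well, within counting error of 0 (0.57, -0.14 to 1.31). The differences between the classes were not tested. The 8 fibroblast markers, summed in neutrophil-like cells, were 828 CPM on Day 3 and 10049 CPM on Day 7, all found in both libraries. As a share of the fibroblast-like level, *Il6st* in neutrophil-like cells of Day 7 was 13.2% and *Osmr* 16.2%, and the markers ran from 6.99% to 13.8%. On Day 3, *Il6st* was 0.870% and *Osmr* 0.845%, and the markers ran from 0.913% to 2.95%. The part of this marker signal in both ratios was not tested.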

How the results depend on the processing

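Of the 84 ratios of members between libraries, 24 were at least 2-fold, and all 212 of their values under the alternatives kept their direction, 12 of them under 2-fold and 13 moved by over 1.5 times. Over all 84 ratios, 38 of 750 values moved by over 1.5 times. The share of all genes at least 2-fold higher or lower was not computed under the alternatives. Counts of members and of listed pathway genes under them are therefore not read as a result. With at most 5% mitochondrial UMIs, log2 ratios were -2.71 for *Il6*, -2.50 for *Lif* and -0.86 for *Socs3* (fibroblast-like, Day 7 over Day 3), the share of *Osm* UMIs in macrophage-like cells on Day 3 was 58.2% and the share of *Il6* UMIs in fibroblast-like cells on Day 3 was 96.8%. With at most 20% mitochondrial UMIs, log2 ratios were -2.67 for *Il6* (fibroblast-like, Day 7 over Day 3) and the share of *Il6* UMIs in fibroblast-like cells on Day 3 was 96.1%. With doublets kept, log2 ratios were -2.66 for *Il6* and -2.43 for *Lif* (fibroblast-like, Day 7 over Day 3), -1.46 for *Osm* (neutrophil-like, Day 7 over Day 3), 1.75 for *Il6* (pericyte-like, Day 14 over Day 7) and the share of *Osm* UMIs in macrophage-like cells on Day 3 was 61.7%. With scaling without the 50 most abundant genes, log2 ratios were -2.40 for *Il6*, -2.11 for *Lif*, -0.90 for *Il6st*, -0.91 for *Osmr* and -0.57 for *Socs3* (fibroblast-like, Day 7 over Day 3), -0.96 for *Osm* (macrophage-like, Day 7 over Day 3), -0.12 for *Osm* (macrophage-like, Day 14 over Day 7), -0.72 for *Osm* (neutrophil-like, Day 7 over Day 3), 3 and not 5 members were 2-fold lower (fibroblast-like, Day 7 over Day 3), 2 and not 0 members were 2-fold higher (macrophage-like, Day 7 over Day 3) and 0 and not 1 members were 2-fold lower (macrophage-like, Day 7 over Day 3). With the mean of single-cell CPM, log2 ratios were -2.45 for *Lif* and -0.68 for *Socs3* (fibroblast-like, Day 7 over Day 3), 0.26 for *Il6* (fibroblast-like, Day 14 over Day 7), -1.08 for *Osm* (macrophage-like, Day 7 over Day 3), 1.61 for *Il6* (pericyte-like, Day 14 over Day 7) and 2 and not 0 members were 2-fold higher (macrophage-like, Day 7 over Day 3). With at least 20 CPM in a library, 0 and not 2 listed pathway genes were 2-fold higher (fibroblast-like, Day 7 over Day 3), 1 and not 6 listed pathway genes were 2-fold lower (fibroblast-like, Day 14 over Day 7), 1 and not 2 members were 2-fold lower (fibroblast-like, Day 14 over Day 7), 0 and not 2 listed pathway genes were 2-fold higher (macrophage-like, Day 7 over Day 3), 2 and not 5 listed pathway genes were 2-fold higher (macrophage-like, Day 14 over Day 7) and 0 and not 1 members were 2-fold lower (macrophage-like, Day 14 over Day 7). With each library clustered alone, log2 ratios were 0.30 for *Il6* (fibroblast-like, Day 14 over Day 7), -1.06 for *Osm* (macrophage-like, Day 7 over Day 3), 1 and not 0 members were 2-fold higher (macrophage-like, Day 7 over Day 3), 2 and not 1 members were 2-fold lower (macrophage-like, Day 7 over Day 3), the share of *Osm* UMIs in macrophage-like cells on Day 3 was 37.7% and the share of *Il6* UMIs in fibroblast-like cells on Day 3 was 98.5%. With cluster 11 counted as fibroblast-like (chosen after seeing the data), log2 ratios were 0.18 for *Il6* (fibroblast-like, Day 14 over Day 7). Ratios are listed by setting only for a chosen set of main results, which leaves out *Osmr* for Day 14 over Day 7. With at least 500 genes per cell, log2 ratios were -0.77 for *Osm* (neutrophil-like, Day 7 over Day 3) and the share of *Osm* UMIs in macrophage-like cells on Day 3 was 70.9%. No paired analysis was possible because each day is a single library and no result comes from a test. Low genes (*Il11* outside fibroblast-like cells, *Osm* in stromal cells, receptor chains in neutrophil-like cells of Day 3) rest on few UMIs. The depth per cell differed between the libraries, in fibroblast-like cells by the medians given with the cell numbers. Day and library cannot be told apart, and the causes of the changes with the settings were not tested.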

Other observations

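Classes with under 50 cells in a library are given as values only. The 10 pericyte-like cells of Day 3 had 2367 CPM of *Il6* (2194 to 2549.8) and 58 CPM of *Il11* (17 UMIs). The 13 endothelial cell-like cells of Day 3 had 293 CPM of *Il6* (223 to 377). The 16 mast cell-like cells of Day 14 had 296 CPM of *Il6* from 10 UMIs and 178 CPM of *Osm* from 6 UMIs.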
